A study of Mus musculus with 6 samples.

Results

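The genes described here encode the 5 subunits of the transcription factor NF-kB (Rela, Rel, Relb, Nfkb1 and Nfkb2), 3 classical IkB inhibitors (Nfkbia, Nfkbib and Nfkbie) and 2 nuclear IkB proteins (Nfkbiz and Bcl3). They were taken by symbol from a table of gene expression in mouse alveolar macrophages, the phagocytes of the lung air spaces. All 10 symbols were found among the 11789 genes of the table, and all 10 passed the minimum level for testing. The choice of genes used no measured value of this comparison, but it was made with earlier results of these data known. The study sequenced RNA from 6 libraries of C57BL/6 mice, all after an exposure named BLM in its title. The wild-type group had 3 libraries (BLM1, BLM2 and BLM3), and the group labelled A20 conditional knockout had 3 (A20-1, A20-3 and A20-4, together called the A20 libraries). Columns were assigned to these groups by their names, with BLM without A20 taken as wild type, since no label names the columns. A20, the product of Tnfaip3, is a ubiquitin-editing enzyme that restrains NF-kB signalling. The labels give neither the Cre driver and deleted exons nor the dose, the day, the age of the mice and whether animals were pooled. Nothing says that the libraries of a group came from separate animals, so p-values measure only the spread between these libraries, part of which may be technical.

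NF-kB acts as dimers of its subunits. In resting cells the classical IkB proteins hold most dimers in the cytoplasm. Signals from receptors such as those for tumour necrosis factor, interleukin-1 and bacterial products activate the IkB kinase complex, IkB is degraded, and the freed dimers enter the nucleus. In the alternative pathway the precursor made by Nfkb2 is processed and pairs with RelB. Several of the genes encoding subunits and inhibitors, Nfkbia above all, are themselves switched on by NF-kB, which closes a feedback loop. In alveolar macrophages this pathway controls the response to inhaled microbes and to tissue injury.

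NF-kB reaches such genes through kB motifs, so the upstream DNA of the genes that hold one is shown here. RefSeq promoter entries (GRCm38.p6) were found for 7 of the 10 genes, all but Nfkb1, Relb and Nfkbiz. The 250 bases before each start were searched on both strands for the kB consensus, a motif of 10 bases that NF-kB dimers are known to bind. A match was present in 6 of the 9 windows of these genes, against 7.25% of all 32851 promoter windows of this length. The windows with a match belonged to 4 genes (Nfkbia, Nfkbie, Rel and Nfkb2). A match is a description of the letters and not a measured binding site. The window before Nfkbia lies on the minus strand at chr12:55492648-55492897, and capitals mark the motif, which ends 20 bases before the start.

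Nfkbia: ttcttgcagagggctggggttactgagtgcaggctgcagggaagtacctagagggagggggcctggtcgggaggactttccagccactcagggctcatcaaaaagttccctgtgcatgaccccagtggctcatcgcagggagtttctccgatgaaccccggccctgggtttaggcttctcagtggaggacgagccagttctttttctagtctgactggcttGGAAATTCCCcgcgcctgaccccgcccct

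The stretches around the matches before Nfkbie (chr17:45555584-45555613, plus strand) and Rel (chr11:23771041-23771071, minus strand) are given in the same way, with capitals for the matching bases. In Rel there were 2 overlapping matches, merged here.

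Nfkbie: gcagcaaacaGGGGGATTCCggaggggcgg
Rel: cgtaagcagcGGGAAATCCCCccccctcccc

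All 3 entries of Nfkb2 held a match. The windows of the later entries, 46305445 to 46305694 and 46305680 to 46305929, lie inside the gene span given below. The first entry has 2 separate matches, within the chromosome 19 stretches from 46304688 to 46304718 and from 46304716 to 46304736. In GENCODE M21 these lie in the first exon of a longer Nfkb2 transcript. The entries of Rela, Nfkbib and Bcl3 held no match in this window.

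Libraries and labels were checked before the genes were compared. BLM3 stood apart, since its Pearson correlations across genes with the other 5 libraries were 0.886 to 0.925, while those 5 correlated with each other at 0.953 or more. Genes are not independent replicates, so these values only describe the libraries. In BLM3 the 9 listed neutrophil markers (of 13, with Camp, Elane, Mpo and Ngp not among the listed genes) summed to 2830 FPKM, against 150.1 and 163 in BLM1 and BLM2 and 115 to 158 in the A20 libraries. S100a9, a calcium-binding protein abundant in neutrophils, made up 1535 of these 2830 FPKM and was at most at 24.8 elsewhere. Of the 8 neutrophil markers tested, 6 were highest in BLM3 (26.5% of all genes tested), and the remaining ones were highest in another library. All 22 alveolar macrophage markers were listed and none was at 0, with sums of 5869 in BLM3 and 8071 to 10518 in the other 5. In the limma test described below, 17 of the 22 had a positive difference, knockout minus wild type, and 5 a negative one (47.1% of all genes). At an unadjusted p under 0.05 there were 12, against 20.3% of all genes. With all libraries 0 passed as higher and 1 as lower (0.252% and 0.851% of all genes). Without BLM3 4 passed as higher and 3 as lower (1.35% and 2.5%). Markers of monocytes and recruited macrophages (13 of 15 symbols were listed, in 14 rows, without Cd163 and Lyve1) summed to 1981 to 2483 in the wild-type libraries and 640 to 770.0 in the A20 libraries. Tnfaip3 had FPKM values of 4.47, 2.18 and 21.6 in BLM1 to BLM3 and of 8.44, 12.9 and 6.80 in A20-1, A20-3 and A20-4, so it was not lower throughout the A20 libraries. This does not check the label, because FPKM covers the whole gene and the deleted exons are not given. Every comparison below is therefore between libraries as grouped by their column names.

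None of the 10 genes passed the test between groups (limma on log2(FPKM + 1), Benjamini-Hochberg adjusted p under 0.05 over 10696 genes). Over all genes tested, 0.252% passed as higher and 0.851% as lower in the A20 libraries (27 and 91 genes, or 41 and 64 with values rescaled to TPM). At an unadjusted p under 0.05 there were 2 of the 10 genes, Relb and Nfkb1, against 20.3% of all genes. These were also the genes of the family whose values did not overlap between groups, Nfkb1 higher and Relb lower in the A20 libraries. Values did not overlap with the knockout higher in 15.9% of all genes tested and with the knockout lower in 13.1%, so 1 of 10 in each direction is near the background. Differences were negative for 8 of 10 genes with all libraries and for 3 of 10 without BLM3, against 47.1% and 45.9% of all genes. Their median difference was -0.24 on the log2 scale, or 0.04 without BLM3, where the medians of all genes were 0.02 and 0.03. Without BLM3 none of the 10 passed either, while 1.35% of all genes passed as higher and 2.5% as lower, and 2 of the 10 had an unadjusted p under 0.05, against 23.3% of all genes.

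**Figure D1:**
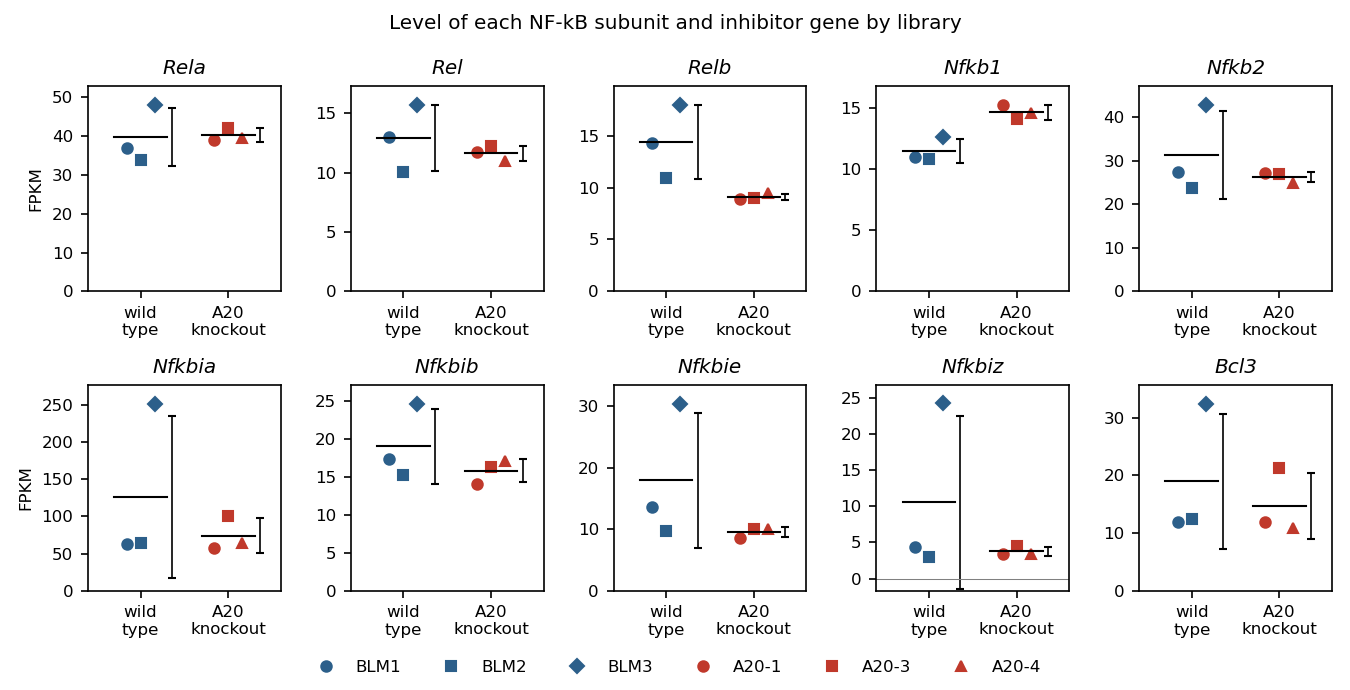
FPKM of each of the 10 genes (vertical axes, each gene on its own scale) in the 3 wild-type and 3 knockout libraries, with symbols for single libraries, horizontal lines for group means and bars for the SD (n = 3). BLM3 is the highest library in 9 of the 10 panels, and in Relb and Nfkb1 the groups do not overlap.

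FPKM is scaled to transcript length, so levels can be compared between genes. Nfkbia was the most abundant of the family in both groups, with a mean of 126 ± 109 FPKM in the wild-type libraries and 73.9 ± 23.7 in the A20 libraries (SD, n = 3 each). Rela and Nfkb2 followed in both groups, and Nfkbiz was lowest in both. In wild type only Nfkbia and Rela were separated, and every other pair of neighbours in the order of means overlapped in their library values. In the A20 libraries the order was Nfkbia, Rela, Nfkb2, Nfkbib, Bcl3, Nfkb1, Rel, Nfkbie, Relb and Nfkbiz. There, Nfkbib overlapped Bcl3, Bcl3 overlapped Nfkb1, and Nfkbie overlapped Relb, while the other neighbours were separated. In the wild-type order Relb stood seventh and Nfkb1 ninth, and in the knockout order Nfkb1 stood sixth and Relb ninth.

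Among the subunits, Rela encodes RelA (p65), which carries the transactivation domain of the most common dimer (chromosome 19 of GRCm38, as are the positions that follow, 5637483 to 5648130, ENSMUSG00000024927.7, plus strand). It was at 37.0, 34.0 and 48.2 FPKM in BLM1 to BLM3 and at 39.0, 42.2 and 39.6 in A20-1, A20-3 and A20-4. The knockout values lay between the wild-type ones. The log2 difference, knockout minus wild type, was 0.03 ± 0.15 (SE, limma adjusted p = 0.911).

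Rel encodes c-Rel, the subunit known from lymphocytes and from cytokine genes of myeloid cells (chromosome 11, 23736847 to 23770970, ENSMUSG00000020275.9, minus strand). Its FPKM was 13.0, 10.1 and 15.7 in the wild-type libraries and 11.7, 12.2 and 11.0 in the A20 libraries, in the same order of libraries. The knockout values again lay within the wild-type range, and the log2 difference was -0.12 ± 0.16 (SE, limma adjusted p = 0.701).

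Relb encodes RelB, the partner of the processed Nfkb2 product in the alternative pathway (chromosome 7, 19606217 to 19629438, ENSMUSG00000002983.17, minus strand). Its FPKM was 14.3, 10.9 and 18.0 in BLM1, BLM2 and BLM3 and 8.86, 8.95 and 9.46 in A20-1, A20-3 and A20-4. Every knockout library lay below every wild-type library, and the A20 libraries were close to each other. The group means were 14.4 ± 3.53 and 9.09 ± 0.323 FPKM (SD, n = 3), a ratio of 0.631 of knockout to wild type. The log2 difference of -0.58 ± 0.17 (SE) did not pass the test (adjusted p in limma = 0.145), nor did that without BLM3 (-0.42 ± 0.13, adjusted p = 0.133). The smallest value over the settings tried was 0.0780, without BLM2, and the largest 0.351. An exact permutation test of FPKM, two-sided, gave p = 0.1, the smallest possible for 3 against 3.

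Cell types other than alveolar macrophages express Relb, and their markers differed between the libraries. The 6 listed B cell markers summed to 87.0, 11.9 and 80.7 FPKM in BLM1 to BLM3 and to 12.7 to 21.9 in the A20 libraries. The 9 listed dendritic cell markers summed to 156.2, 92.9 and 75.3 in BLM1, BLM2 and BLM3. In the A20 libraries these sums were 50.8 to 70.3. Of the 9, 0 passed the test with all libraries. Without BLM3, Flt3, Xcr1 and Clec9a passed as lower, where 2.5% of all genes did so. All 6 B cell and all 9 dendritic cell markers had a negative difference with all libraries, against 47.1% of all genes. The summed markers of monocytes and recruited macrophages (given above) were also lower in every A20 library. Of their 14 rows 13 had a negative difference (47.1% of all genes), with a median of -1.54. With all libraries 5 passed as lower, against 0.851% of all genes, and without BLM3 also 5, against 2.5%. Leaving out A20-1, A20-4 or BLM2 left 4. Without A20-3 or without BLM1 0 of them passed, where over all genes 0 and 4 passed as lower. In bulk samples fewer cells of a type and less RNA per cell cannot be told apart, and the part of these cells in the Relb values was not tested.

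Nfkb1 encodes the precursor p105, which acts as an inhibitor and is processed to the subunit p50 (chromosome 3, 135584655 to 135691547, ENSMUSG00000028163.17, minus strand). Its FPKM was 11.0, 10.8 and 12.7 in BLM1, BLM2 and BLM3 and 15.3, 14.1 and 14.6 in A20-1, A20-3 and A20-4. Every knockout library lay above every wild-type library, and it was the one gene of the 10 in which BLM3 was not the highest. The means were 11.5 ± 1.02 and 14.7 ± 0.602 FPKM (SD, n = 3), 1.28-fold higher in the A20 libraries. The log2 difference of 0.33 ± 0.10 (SE) did not pass the test (adjusted p in limma = 0.157), nor did that without BLM3 (0.39 ± 0.10, adjusted p = 0.0829). Over the settings tried the adjusted p ran from 0.0829 to 0.378. FPKM of the whole gene does not separate p105 from p50, which come from the same RNA. The summed level of the 10 lung epithelial markers was 313 to 399 FPKM in the A20 libraries against 208, 220.5 and 80.6 in BLM1, BLM2 and BLM3. Of these markers 7 had a positive and 3 a negative difference, 0 passed the test with all libraries, and without BLM3 the keratin genes Krt8 and Krt18 passed as lower. Other lists also held genes that passed as higher without BLM3, where 1.35% of all genes did so and 2.5% passed as lower. Of 22 alveolar macrophage markers 4 passed as higher and 3 as lower, and of 12 T and NK cell markers 3 and 0. The part of any of these cells in the Nfkb1 values was not tested.

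Nfkb2 encodes the precursor p100, itself an inhibitor, and the subunit p52 made from it (chromosome 19, 46304737 to 46312090, ENSMUSG00000025225.14, plus strand). Its FPKM was 27.4, 23.7 and 42.8 in the wild-type libraries and 27.1, 26.9 and 25.0 in the A20 libraries. BLM3 was 1.67-fold above the mean of BLM1 and BLM2, and the other 5 libraries lay within a narrow band. The log2 difference was -0.20 ± 0.21 (SE, limma adjusted p = 0.622) and 0.04 ± 0.11 without BLM3 (adjusted p = 0.850).

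The values of Relb lay lower and those of Nfkb1 higher in the A20 libraries, so their ratio within each library, which no scaling of the library alters, is given too. This ratio was chosen after the values were seen, so it is a description with no test. Relb over Nfkb1 was 1.29, 1.01 and 1.42 in BLM1, BLM2 and BLM3 and 0.579, 0.635 and 0.646 in A20-1, A20-3 and A20-4. Relb exceeded Nfkb1 per transcript length in BLM1 and BLM3, and was nearly equal to it in BLM2 (10.9 against 10.8 FPKM). Relb was lower than Nfkb1 in every knockout library. Of the summed FPKM of the 5 subunit genes, Relb made up 13.1% ± 0.845 in the wild-type libraries and 8.92% ± 0.504 in the A20 libraries (SD, n = 3). Nfkb1 made up 10.7% ± 1.43 and 14.4% ± 0.794. Rela held the largest share in all 6 libraries, 35.1% to 40.5%, and Rel stayed between 11.0% and 12.7%.

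Of the classical inhibitors, Nfkbia encodes IkB-alpha, the fast feedback inhibitor (chromosome 12, 55489410 to 55492647, ENSMUSG00000021025.8, minus strand; its upstream sequence with the kB motif is printed above). Its FPKM was 62.8, 64.1 and 252 in BLM1, BLM2 and BLM3 and 56.9, 101 and 63.8 in A20-1, A20-3 and A20-4. BLM3 was 3.97-fold above the mean of BLM1 and BLM2, and A20-3 was 1.67-fold above the mean of the other knockout libraries. The other 4 libraries lay between 56.9 and 64.1 FPKM, with both groups among them. The log2 difference was -0.49 ± 0.55 (SE, limma adjusted p = 0.648) with all libraries and 0.17 ± 0.24 without BLM3 (adjusted p = 0.703).

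Nfkbib encodes IkB-beta, a slower inhibitor (chromosome 7, 28758251 to 28767512, ENSMUSG00000030595.15, minus strand). It was at 17.3, 15.1 and 24.6 FPKM in the wild-type libraries and 14.03, 16.3 and 17.0 in the A20 libraries. BLM3 was the highest, and the remaining wild-type values lay among the knockout ones or just above. The log2 difference was -0.23 ± 0.19 (SE, limma adjusted p = 0.513), or -0.04 ± 0.12 without BLM3.

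Nfkbie encodes IkB-epsilon, which is also induced by NF-kB (chromosome 17, 45555716 to 45563169, ENSMUSG00000023947.7, plus strand). It was at 13.7, 9.73 and 30.4 FPKM in BLM1 to BLM3 and at 8.61, 9.97 and 10.1 in the A20 libraries. BLM2 lay within the knockout range, BLM1 above it, and BLM3 2.60-fold above the mean of BLM1 and BLM2. The log2 difference was -0.69 ± 0.37 (SE, limma adjusted p = 0.338), or -0.25 ± 0.16 without BLM3 (adjusted p = 0.391).

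The nuclear IkB proteins bind p50 or p52 dimers at DNA and can turn genes on or off. Nfkbiz encodes IkB-zeta, which is needed for a set of late inflammatory genes (chromosome 16, 55811375 to 55838899, ENSMUSG00000035356.16, minus strand). Its FPKM was 4.31, 3.04 and 24.3 in BLM1, BLM2 and BLM3 and 3.39, 4.52 and 3.46 in A20-1, A20-3 and A20-4. BLM3 was 6.61-fold above the mean of BLM1 and BLM2, the widest step of the family, and the other 5 libraries overlapped between groups. The log2 difference was -0.78 ± 0.65 (SE, limma adjusted p = 0.529), or 0.04 ± 0.17 without BLM3 (adjusted p = 0.916).

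Bcl3 encodes a nuclear partner of p50 and p52 homodimers (chromosome 7, 19808462 to 19822770, ENSMUSG00000053175.17, minus strand). It was at 11.97, 12.4 and 32.4 FPKM in the wild-type libraries and at 11.9, 21.2 and 10.9 in the A20 libraries. As with Nfkbia, BLM3 was highest and A20-3 next, and the other 4 libraries of both groups lay between 10.9 and 12.4 FPKM. The log2 difference was -0.26 ± 0.42 (SE, limma adjusted p = 0.759), or 0.19 ± 0.27 without BLM3.

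**Figure D2:**
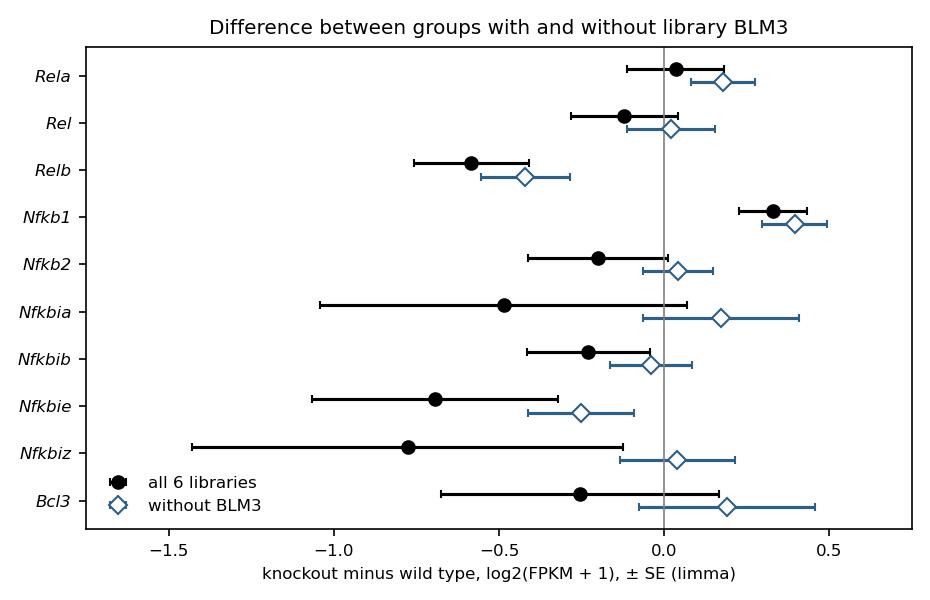
Difference between groups for each of the 10 genes, as A20 minus wild-type libraries in log2(FPKM + 1) units with its SE from limma, with all 6 libraries (filled circles) and without BLM3 (open diamonds). Without BLM3, Nfkb2, Rel, Nfkbia, Nfkbiz and Bcl3 move from below to above 0, while Relb stays below and Nfkb1 above 0.

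The larger pattern in the family was thus the spread within the wild-type group. BLM3 was the highest library in 9 of 10 genes, against 26.5% of all genes tested. On the log2 scale BLM3 lay above the mean of BLM1 and BLM2 by a median of 0.65 over the 10 genes and by 0.01 over all genes. The steps were 2.45 for Nfkbiz, 1.97 for Nfkbia, 1.34 for Bcl3 and 1.32 for Nfkbie. Those for Nfkb2, Nfkbib, Relb, Rela, Rel and Nfkb1 were 0.73, 0.57, 0.49, 0.43, 0.42 and 0.20. The same library had the highest sum of neutrophil markers (given above), and neutrophils express several of these genes. The part of these cells in the BLM3 values was not tested. Erythroid markers summed to 2484 FPKM in BLM3 and 3551 in A20-3, the libraries highest in Nfkbia and Bcl3, and to 188 to 968 in the other 4. Handling and immediate early genes summed to 813 FPKM in BLM3 and 465 in A20-3 and to 350.0 to 433 in the other 4, and BLM3 was highest in 9 of these 14 genes. T and NK cell markers summed to 471 FPKM in BLM3, to 239 and 208 in BLM1 and BLM2 and to 306 to 362 in the A20 libraries. The part of these groups in the result was not tested either.

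The ratio of classical inhibitor to subunit transcripts followed the same libraries. Nfkb1 and Nfkb2 were counted as subunits here, although their precursors also act as inhibitors, and the nuclear IkB genes were left out. The summed FPKM of Nfkbia, Nfkbib and Nfkbie, divided by that of the 5 subunit genes, was 0.912, 0.994 and 2.24 in BLM1, BLM2 and BLM3. It was 0.780, 1.22 and 0.912 in A20-1, A20-3 and A20-4. Nfkbia made up 67.0% to 82.1% of the inhibitor sum. The group means were 1.38 ± 0.742 in the wild-type libraries and 0.970 ± 0.225 in the A20 libraries (SD, n = 3), and their difference of -0.41 became 0.02 without BLM3.

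**Figure D3:**
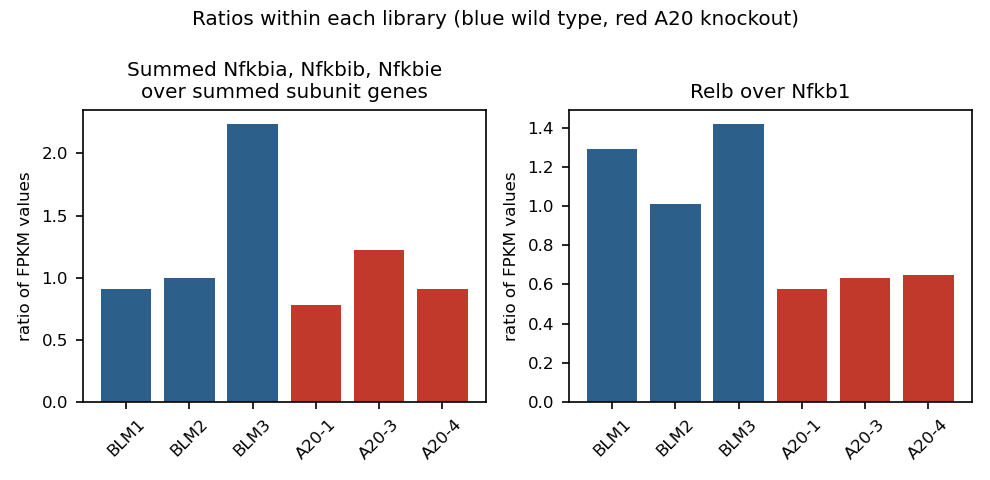
Ratios of FPKM values within each library, as bars from 0, for the 3 classical inhibitors over the 5 subunits (left) and for Relb over Nfkb1 (right). On the left BLM3 reaches 2.24 and the groups overlap, and on the right the wild-type libraries lie at 1.01 or above and the A20 libraries at 0.646 or below.

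The genes around the family in the pathway were taken from lists of textbook members, chosen by role. In none of the 6 lists did a gene pass the test with all libraries (limma, adjusted p under 0.05). Counts at an unadjusted p under 0.05 are to be read against the 20.3% of all genes that reached it, and lists of this size hold few genes. Of 13 genes of the IkB kinase complex and its activating kinases, 0 passed, 3 had an unadjusted p under 0.05, and the median log2 difference was -0.05. The smallest p belonged to Tab1, an adaptor of the kinase TAK1, at 7.77, 7.34 and 8.50 FPKM in the wild-type and 5.44, 5.13 and 5.48 in the A20 libraries (-0.48 ± 0.10, SE, limma adjusted p = 0.0829). Map3k3, a kinase upstream of the complex, was at 19.5, 18.4 and 18.2 FPKM and at 27.1, 25.0 and 36.1 (0.61 ± 0.15, adjusted p = 0.107). Both had non-overlapping groups, Map3k3 higher and Tab1 lower in the A20 libraries. Over all genes tested, 15.9% did not overlap with the knockout higher and 13.1% with it lower. Ikbkb of the same list, given at the end, also did not overlap and was higher in the A20 libraries.

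Of 14 adaptors and ligases upstream of the kinases, 0 passed, 1 had an unadjusted p under 0.05, and the median was -0.08. Traf1, an adaptor of tumour necrosis factor receptors and itself a target of NF-kB, was at 7.38, 6.49 and 11.0 FPKM in the wild-type libraries and 4.37, 6.01 and 5.47 in the A20 libraries (limma adjusted p = 0.207). Irak4, a kinase of interleukin-1 and Toll-like receptors, was at 11.6, 11.3 and 8.80 FPKM in the wild-type libraries and 13.3, 12.5 and 12.8 in the A20 libraries (adjusted p = 0.294). For the ubiquitin ligase that marks phosphorylated IkB, 5 genes were tested, 0 passed and 2 had an unadjusted p under 0.05. These were Nedd8, the modifier that activates cullins, which differed by -0.45 ± 0.12 on the log2 scale (SE, limma adjusted p = 0.114), and Rbx1, the RING subunit, with -0.36 ± 0.11 (adjusted p = 0.154). The median of that list was -0.03.

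Among 11 nuclear cofactors and terminators of RelA, 0 passed and 1 had an unadjusted p under 0.05, and the median was -0.03. Ep300, the acetyltransferase p300, was at 10.5, 9.18 and 9.998 FPKM in the wild-type libraries and 15.3, 12.1 and 14.1 in the A20 libraries (limma adjusted p = 0.123). Hdac3, a deacetylase, had a log2 difference of -0.23 (adjusted p = 0.301). Of 4 other IkB-like genes tested, 0 passed and 1 had an unadjusted p under 0.05. Nkiras2, a small GTPase that slows IkB degradation, was at 5.48, 5.77 and 4.21 FPKM in the wild-type libraries and 5.49, 11.0 and 9.11 in the A20 libraries (limma adjusted p = 0.235). Nfkbid, a nuclear IkB protein outside the 10 genes, had the same shape as Nfkbiz, with 9.89, 9.23 and 50.8 FPKM in BLM1 to BLM3 and 8.11, 11.2 and 9.84 in the A20 libraries (adjusted p = 0.513).

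Of 26 textbook targets of NF-kB, 24 were tested, and the list includes Tnfaip3, the gene that the knockout label names. Of the 24, 0 passed, 5 had an unadjusted p under 0.05, and the median log2 difference was -0.49, or 0.03 without BLM3. The 5 of 24 are near the 20.3% of all genes. BLM3 was the highest library in 19 of the 24, against 26.5% of all genes. Cd40, a costimulatory receptor, was at 2.77, 1.36 and 2.40 FPKM in the wild-type libraries and 0.983, 1.22 and 0.623 in the A20 libraries (limma adjusted p = 0.155). Icam1, an adhesion molecule, was at 37.2, 37.1 and 54.1 and at 31.8, 28.6 and 26.7 (adjusted p = 0.170). In both, every knockout library lay below every wild-type library, as held for 13.1% of all genes tested. These 2 genes are named for having the smallest p of the list, and the Cd40 values were low, at 2.77 FPKM or less. Without BLM3, 1 target passed as higher, Tnfaip2, which is itself induced by tumour necrosis factor, and 1 as lower, the cytokine gene Il1a. Over all genes without BLM3, 1.35% passed as higher and 2.5% as lower, and a list of 24 holds few genes.

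**Figure D4:**
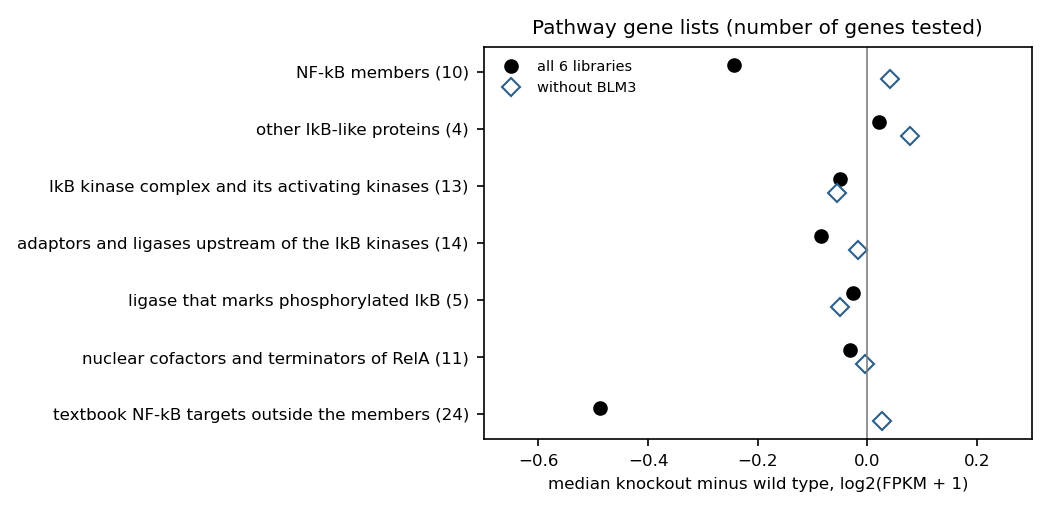
Median difference between groups, as A20 minus wild-type libraries in log2(FPKM + 1) units, for the 10 genes and for each pathway list (number of genes tested in brackets), with all libraries (filled circles) and without BLM3 (open diamonds). The 10 genes and the textbook targets have medians of -0.24 and -0.49 with all libraries and of 0.04 and 0.03 without BLM3.

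For the gene with the widest range and the one with the smallest p, the genes most like them over the 6 libraries were looked up by Pearson correlation of log2(FPKM + 1). With 6 points, of which 1 can lie far out, such values only describe a shape. For Nfkbiz they were Abtb2 (r = 0.999), the syntaxin gene Stx11 (0.997) and the DNA-binding protein gene Arid5b (0.997). All 3 were highest in BLM3, with Stx11 at 16.4 FPKM there and at most 3.45 elsewhere. For Relb they were Tmem203, Iqcc and Ly6c1, with r from 0.993 to 0.995. Ly6c1, a surface protein of the Ly6 family whose close paralogs could share its reads, was at 3.83, 1.18 and 6.03 FPKM in the wild-type libraries and at 0.482, 0.530 and 0.882 in the A20 libraries.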

How the data were processed

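RNA was sequenced from alveolar macrophages of 3 wild-type and 3 A20 conditional knockout samples, with a stranded kit per the labels' protocols. The authors deposited FPKM per gene and library, per the file headers, for protein-coding genes on GRCm38, per the submitters' processing notes. The sources used here do not give the aligner, quantifier, annotation or use of strand, and the read depth behind the values is unknown. Nfkb2, Nfkbib and Bcl3 overlap genes on the other strand, and Nfkb1 a predicted gene on its own strand, in GENCODE M21, so some reads could be shared.

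Columns named for A20 were taken as knockout and those named only for BLM as wild type. Column numbers were not taken as the replicate numbers of the titles. Genes averaging 1 FPKM or more across the 6 libraries (10696 of 11789) were compared as log2(FPKM + 1), a pseudocount of 1, with limma 3.58.1 in R 4.3.3 (trend on mean expression, two-sided, Benjamini-Hochberg, threshold 0.05), which understates changes of low genes. The 10 genes and the lists were chosen with earlier results of these data known. Of each list the text names the 2 genes with the smallest p, or those past the threshold, and other genes were chosen after their values were seen. Alternatives were pseudocounts of 0.1 and 5, no minimum or a minimum of 5 FPKM, TPM, quantile normalization, no trend, and leaving out each library. Protein sequences were not used here, and 1 gene counted in a marker list is not reported here by name.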

Additional observations from a re-analysis of the deposited data

How the results depend on the processing

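None of the 10 genes passed the threshold (limma, adjusted p under 0.05) in any of the 13 alternatives. Of their recomputed differences, 123 kept their sign and 7 changed it, all on leaving out 1 wild-type library. Without single libraries the log2 difference ran from -0.37 to 0.041 for Nfkb2, -0.28 to 0.019 for Rel, -0.82 to 0.17 for Nfkbia, -1.28 to 0.040 for Nfkbiz and -0.54 to 0.19 for Bcl3, each positive only without BLM3. For Rela it ran from -0.068 to 0.18 and was negative without BLM1 or BLM2. Over all genes 27 passed as higher and 91 as lower. These counts were 17 and 58 with a minimum of 5 FPKM, where fewer genes are tested, and 41 and 64 as TPM. Without single libraries they ran from 0 to 144 and from 0 to 267, with 0 and 0 without A20-3 and 144 and 267 without BLM3. The cause of the changes with TPM and with single libraries was not tested. No paired analysis was possible because the table's columns do not carry the replicate numbers of the sample titles. Depth is unknown, so no counting error can be given.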

Other observations

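Some pathway genes outside the family had their highest value in BLM3 as well. They were chosen after their values were seen and are given without a test of that pattern. Irak2, a kinase of interleukin-1 and Toll-like receptor signalling, was at 9.54, 9.64 and 54.7 FPKM in BLM1 to BLM3 and at 16.1, 21.5 and 14.1 in A20-1, A20-3 and A20-4. All 3 knockout libraries thus lay above BLM1 and BLM2 and below BLM3, and the log2 difference was -0.03 with all libraries and 0.76 without BLM3 (limma adjusted p = 0.980 and 0.0694). Ikbke, a kinase related to the IkB kinases, was at 9.01, 6.05 and 20.5 FPKM in wild type and 6.198, 5.79 and 4.99 in the A20 libraries. Birc3, a ubiquitin ligase of the tumour necrosis factor receptor complex, was at 14.4, 9.47 and 28.3 FPKM and at 9.66, 11.2 and 10.1. Of the genes of the core kinase complex, Chuk was at 12.9, 11.1 and 12.6 FPKM in BLM1 to BLM3 and 13.6, 13.7 and 11.4 in the A20 libraries. Ikbkg was highest in BLM3, at 5.31, 3.78 and 6.42 FPKM in the wild-type and 4.05, 3.88 and 3.92 in the A20 libraries. Ikbkb had groups that did not overlap, at 8.32, 7.56 and 8.37 FPKM in the wild-type and 8.82, 11.3 and 10.5 in the A20 libraries (limma adjusted p = 0.226). The same held, with the knockout higher, for 15.9% of all genes tested.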
